A study of Mus musculus with 12 samples.

Results

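The Apoe and Apoc cluster is a run of apolipoprotein genes that lie side by side on mouse chromosome 7 and are all transcribed from the minus strand. Its chromatin accessibility was read by ATAC-seq: a transposase cuts exposed DNA and leaves adapters there, so that sequenced tags pile up into peaks at promoters and other open elements. Every peak that the deposited tables annotate to Apoe, Apoc1, Apoc2, Apoc4 or Apoc4-apoc2 was taken as a member. The table of untreated mice held 8 such peaks of 60288 and the table of LPS-treated mice held 7 of 54953, giving 15 peaks of 115241 in all. Of these, 7 were annotated to Apoe (4 untreated and 3 LPS), 4 to Apoc2 (2 in each table), 2 to Apoc1 and 2 to Apoc4-apoc2, the readthrough transcript that joins Apoc4 to Apoc2. No peak in either table was annotated to Apoc4 alone.

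The cells were brain macrophages of C57BL/6J bone marrow chimeras with wild-type genotype. Every mouse had received 950 cGy of irradiation and donor marrow. The labels give 3.5 or 9 months after grafting and do not tie an interval to a mouse. The paper on these data states 9 months for the chimeras profiled by ATAC-seq, with and without LPS. Both populations, CD45.1 cells derived from the graft and CD45.2 cells, the host microglia, were sorted from each brain and gated on low CD45 of their own allotype, CD11b and no Ly6C/G. Untreated mice (4, 5 and 6) gave the groups CD45.1 untreated and CD45.2 untreated, and mice killed 12 h after an injection of the endotoxin lipopolysaccharide (LPS, 2.5 mg/kg, mice 1, 2 and 3) gave CD45.1 LPS and CD45.2 LPS, with 3 libraries in each of the 4 groups. All animals, controls included, had an irradiated brain, and the donor marrow carried a different CD45 allele from the host, so origin and allotype go together.

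Apolipoprotein E is the main lipid carrier secreted in the brain, chiefly by astrocytes and, in disease and ageing, by microglia, and it is taken up through receptors of the LDL receptor family. The small C apolipoproteins travel on the same particles: apolipoprotein C-II activates lipoprotein lipase, whereas C-I acts mainly as a brake on lipid uptake and transfer, and the role of C-IV is less well defined. In macrophages the genes of the cluster are known to be switched on together when the cell is loaded with cholesterol, through the nuclear receptors LXR and RXR acting on distant elements shared by the cluster.

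In untreated mice 4 of 7 tested peaks of the cluster were higher in grafted cells than in host microglia with adjusted p below 0.05, against 8.54% of all peaks, and 2 of them passed the stricter limit of a call. The peak over the Apoe start site was 11.6 times as high in CD45.1 and an intergenic peak between Apoc1 and Apoc4-apoc2 was 15.5 times as high, each found in the own peak list of 3 of 3 grafted libraries and of 0 and 1 of 3 host libraries. Peaks were defined by merging these lists, so list membership is not separate support for a difference. After LPS the Apoe start site differed by 4.99-fold, and its adjusted p reached 0.0236 with a library left out. The intergenic peak and the peak upstream of Apoc1 did not pass the test between the populations. Both held more host tags than in untreated mice, a contrast in which treatment and table cannot be told apart. The intergenic peak also had 1 low grafted library, that of mouse 3, without which its DESeq2 adjusted p was 0.0323. The peaks are described in order along chromosome 7, on build mm9, after the sequences of some of them.

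The sequences shown are those of the intergenic peak, which has the largest difference in untreated mice, and of 2 peaks around the Apoe start. Of these 2 only the start-site peak passed the test between the populations. The sequences of the Apoc1 and Apoc2 intron peaks follow, where host cells held more tags in LPS-treated than in untreated mice. All sequences were read from the mm9 genome on the minus strand, 5′ to 3′, which is the strand of all genes of the cluster. Capitals mark matches on either strand to the letters that the factors C/EBP (TTGCNNAA), nuclear receptors (AGGTCA), AP-1 (TGANTCA) or IRF (GAAANNGAA) prefer. Of the Apoe start-site peak only the 55 bases upstream of the annotated start are printed, since the other 102 lie in an untranslated exon.
Apoc4-apoc2 intergenic peak, chr7:20269167-20269342: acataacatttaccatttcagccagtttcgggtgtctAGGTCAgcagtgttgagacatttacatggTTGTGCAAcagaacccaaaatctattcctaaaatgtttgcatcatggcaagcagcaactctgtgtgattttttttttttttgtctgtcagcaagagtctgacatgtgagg
Apoe start-site peak, upstream part, chr7:20284516-20284570: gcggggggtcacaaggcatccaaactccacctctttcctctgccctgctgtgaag
Apoe upstream peak, chr7:20285073-20285196: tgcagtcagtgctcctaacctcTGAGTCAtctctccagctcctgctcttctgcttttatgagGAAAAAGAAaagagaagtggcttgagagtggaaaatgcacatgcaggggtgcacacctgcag
Apoc1 upstream peak, chr7:20278941-20279085: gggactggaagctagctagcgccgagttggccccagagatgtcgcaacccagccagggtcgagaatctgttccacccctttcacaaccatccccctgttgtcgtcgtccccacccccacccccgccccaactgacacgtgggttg
Apoc2 intron peak, chr7:20261266-20261410: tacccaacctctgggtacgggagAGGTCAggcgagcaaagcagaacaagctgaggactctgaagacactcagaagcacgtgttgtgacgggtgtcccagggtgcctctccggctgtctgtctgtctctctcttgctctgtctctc

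The intergenic peak holds AGGTCA at bases 38 to 43 and, in the antisense direction, the C/EBP letters at bases 67 to 74. It is the only member with both, and with 39.8% GC it is the least GC-rich, against 65.6% in the Apoe start-site peak and 63.4% in the Apoc1 peak. Neither of the latter peaks holds any of the motifs searched. The Apoc2 intron peak holds AGGTCA and the Apoe upstream peak holds AP-1 and IRF letters. The peak downstream of Apoc2, not printed here, also holds the C/EBP letters. Over 200 bases centred on each untreated peak, AGGTCA occurs in 11.7% of all peaks, the C/EBP letters in 9.82%, AP-1 in 8.11% and IRF in 8.34%. Such a window of the peak at the end of Tomm40 also holds AGGTCA. The PU.1 letters GAGGAAGT, found in 9.45% of all peaks, occur in none of the 8 member windows. RUNX letters (TGTGGT, 15.8% of peaks) occur once, in the window of the intergenic peak, and NF-kappaB letters (GGGANNTCC, 3.33%) occur in 1 window, that of the Apoe peak farthest upstream, as 2 overlapping matches on opposite strands. With so few windows these matches only describe the letters present.

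**Figure D1:**
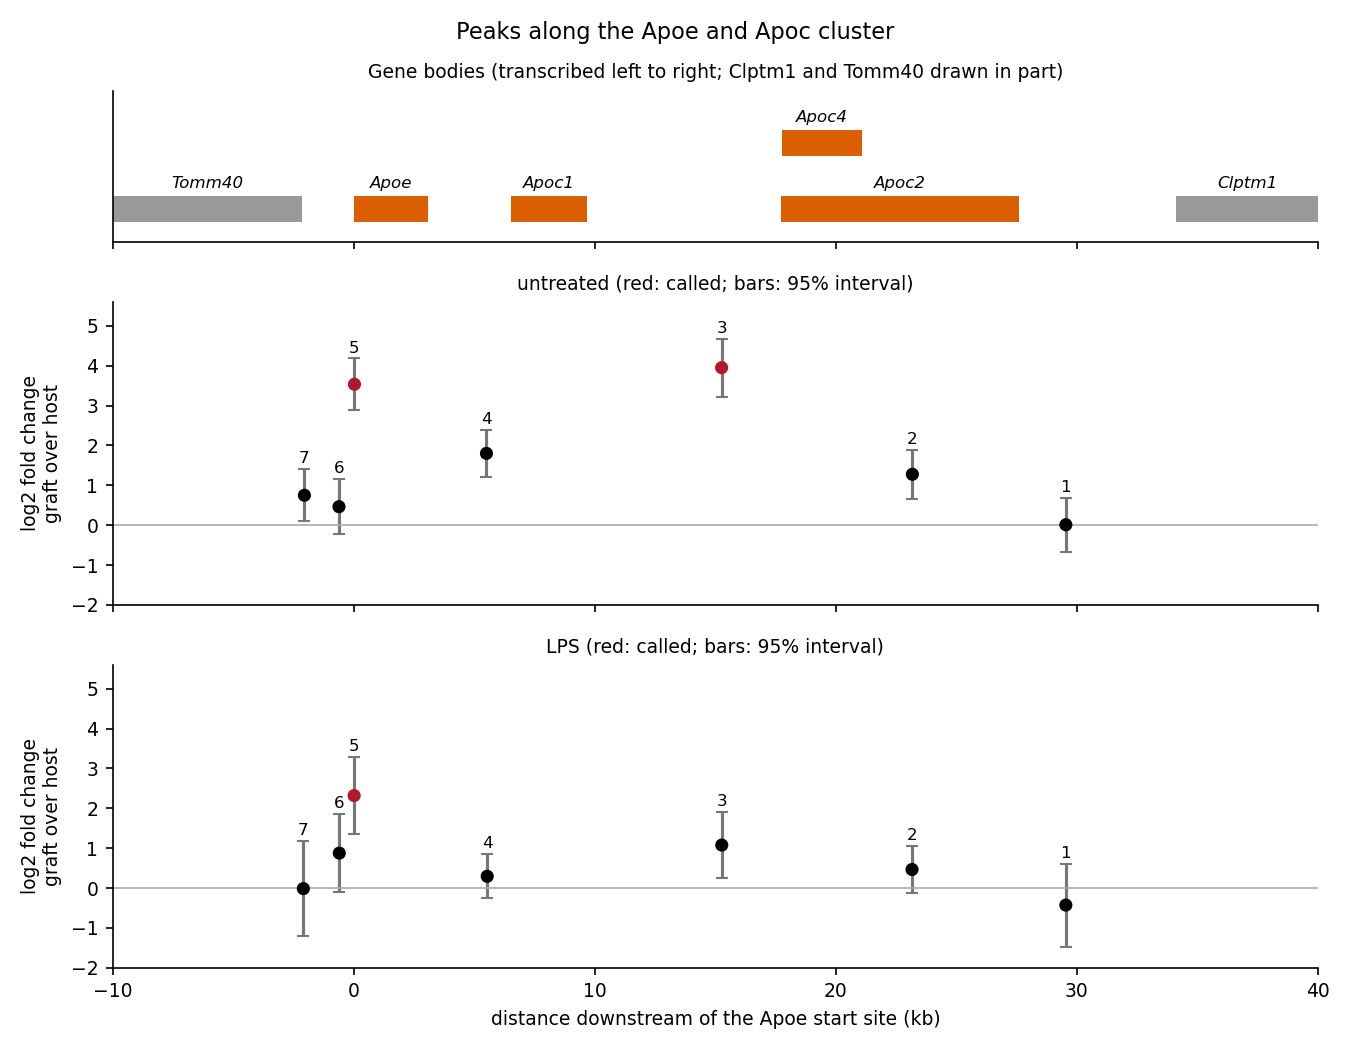
Gene bodies of the cluster and the log2 fold change of CD45.1 over CD45.2 at each tested member peak, in untreated (middle) and LPS-treated mice (bottom), against the distance downstream of the Apoe start site in kb. Points are DESeq2 estimates with 95% intervals, numbered in order along the chromosome (1 Apoc2 downstream, 2 Apoc2 intron, 3 Apoc4-apoc2, 4 Apoc1, 5 Apoe start site, 6 Apoe upstream, 7 end of Tomm40), and red marks called peaks: peaks 3 and 5 stand out in untreated mice and peak 5 after LPS.

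Peaks were tested with DESeq2 in each table, all adjusted p-values being those over the whole table, and a peak was called where it differed by over 4-fold with an adjusted p below 0.01. Levels are tags divided by the library's size factor (normalized tags), so that they can be compared between libraries of a table, and log2 fold changes are those of CD45.1 over CD45.2. Of 7 member peaks tested in untreated mice, 2 were called higher in CD45.1, while 3.78% of all peaks tested were. With an adjusted p below 0.05 as the sole limit, 4 of the 7 were higher in CD45.1, against 8.54% of all peaks, and none was higher in CD45.2. All CD45.1 libraries lay above all CD45.2 libraries at 6 of the 7, as they did at 17.8% of all peaks. The median log2 fold change of the 7 was 1.28, and that of all peaks was 0.000836. The eighth peak was too low to be tested. A higher tag count can come from more cells with the site open or from a site more open in each cell, which cannot be told apart in sorted bulk populations.

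The first peak in the order lies downstream of Apoc2 (chromosome 7, 20254909 to 20255029), 1898 bp beyond the end of the gene and between it and Clptm1, which encodes an unrelated membrane protein. It did not pass the test, with 35.5, 31.0 and 22.9 normalized tags in grafted libraries (mice 4, 5 and 6) and 36.1, 26.3 and 28.4 in CD45.2, so that the groups overlapped. Its fold change of 1.01 had a 95% interval of 0.629 to 1.62 (adjusted p 0.993).

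The Apoc2 intron peak (20261266 to 20261410) lies inside the gene of the lipoprotein lipase activator, in the first intron of the readthrough transcript, and touches no annotated exon. It was higher in CD45.1, with 84.9, 76.7 and 65.3 normalized tags against 33.6, 16.3 and 45.9 in CD45.2. Grafted libraries were all above host libraries, but the host values were spread widely, and the ratio within a mouse ran from 1.39 in mouse 6 to 4.65 in mouse 5. The log2 fold change was 1.28 (SE 0.313, adjusted p 0.000762), below the 4-fold limit of a call. Leaving out the CD45.2 library of mouse 4 or of mouse 5 raised the adjusted p to 0.0892 or 0.0575.

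The Apoc4-apoc2 peak (20269167 to 20269342) lies between genes, 2401 bp upstream of the annotated Apoc4 start and 5490 bp beyond the end of Apoc1. The annotated Apoc2 gene, in its full extent, starts at nearly the same place (2394 bp from the peak). The deposited annotation gives the readthrough start as the nearest (−2445 bp) and places the peak in a LINE repeat (L1MB4). CD45.1 libraries held 106, 112 and 126 normalized tags, and CD45.2 libraries 11.5, 6.19 and 6.09. The raw tags were 113.5, 123 and 116 against 7, 8 and 7.5, so the host level rests on few tags. Only grafted libraries exceeded the count of 10 that a peak needed to be tested. Grafted cells were thus far above every host library, and the peak overlapped an entry of the library's own peak list in 3 of 3 grafted and 1 of 3 host libraries. The log2 fold change was 3.95 (SE 0.369, adjusted p 3.76e-23), or 15.5-fold with a 95% interval of 9.36 to 25.5, and its p ranked 15th of 59170 peaks.

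The Apoc1 peak (20278941 to 20279085) lies 933 bp upstream of Apoc1, whose product restrains lipid uptake, and 2372 bp beyond the end of Apoe. It held 86.8, 67.1 and 72.4 normalized tags in grafted and 26.2, 20.9 and 19.1 in host cells. The groups did not overlap and the host level was well above that of the intergenic peak, with an entry in the own peak list of all 6 libraries. The difference was 3.48-fold (95% interval 2.33 to 5.21, adjusted p 1.05e-07), under the limit of a call.

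The Apoe start-site peak (20284414 to 20284570) covers the start of the gene, with 102 of its 157 bases in the untranslated first exon of the annotated Apoe transcript. In CD45.1 it held 128, 106 and 125 normalized tags, and in CD45.2 it held 12.3, 8.51 and 10.6. It matched an entry of the own peak list in 3 of 3 grafted and 0 of 3 host libraries, so the region was defined by grafted libraries alone. The log2 fold change of 3.53 (SE 0.330, adjusted p 3.76e-23) corresponds to 11.6-fold, with a 95% interval of 7.39 to 18.1, and its p ranked 14th of 59170. Within the 3 mice the ratio varied little, from 10.5 to 12.3.

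The other peaks given to Apoe differed less. A promoter peak 557 bp upstream of the annotated start (20285073 to 20285196) held 31.7, 30.1 and 33.2 normalized tags in grafted and 21.3, 23.99 and 23.1 in host cells. Every grafted library was above every host library, but the fold change of 1.38 (95% interval 0.851 to 2.23, adjusted p 0.504) did not pass. A peak 23 bp beyond the 3′ end of Tomm40, the gene for a mitochondrial import channel, (20286499 to 20286638) held 46.2, 40.2 and 34.9 tags against 22.9, 22.1 and 28.0, or 1.68-fold (95% interval 1.07 to 2.65, adjusted p 0.128, and 0.0198 by edgeR). The remaining peak (20286951 to 20287039) lies in the last exon of Tomm40 and was seen in the own list of the CD45.2 library of mouse 5 only, with 6 raw tags there and 0 to 2 in the others. It had no counterpart in the LPS table.

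Counted per 100 bases of peak, to set peaks of different width side by side, the levels of the 7 tested peaks in untreated grafted cells were in the order Apoe start site (76.2 ± 7.39 normalized tags, SD, n = 3), Apoc4-apoc2 (65.2 ± 5.95), Apoc2 intron (52.2 ± 6.77), Apoc1 (52.0 ± 7.01), end of Tomm40 (28.9 ± 4.05), upstream Apoe (25.6 ± 1.25) and Apoc2 downstream (24.6 ± 5.27). The Apoe start-site and Apoc4-apoc2 peaks overlapped within their SDs, as did the Apoc2 intron and Apoc1 peaks and the last 3. In host microglia the Apoc2 downstream peak came first (25.01 ± 4.24), ahead of the Apoc2 intron (22 ± 10.26), upstream Apoe (18.4 ± 1.11), end of Tomm40 (17.4 ± 2.29) and Apoc1 (15.2 ± 2.56) peaks, and the Apoe start site (6.66 ± 1.20) and Apoc4-apoc2 (4.498 ± 1.75) came last of the 7 tested peaks. The first 5 overlapped their neighbours in this order within their spread, as did the last pair.

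**Figure D2:**
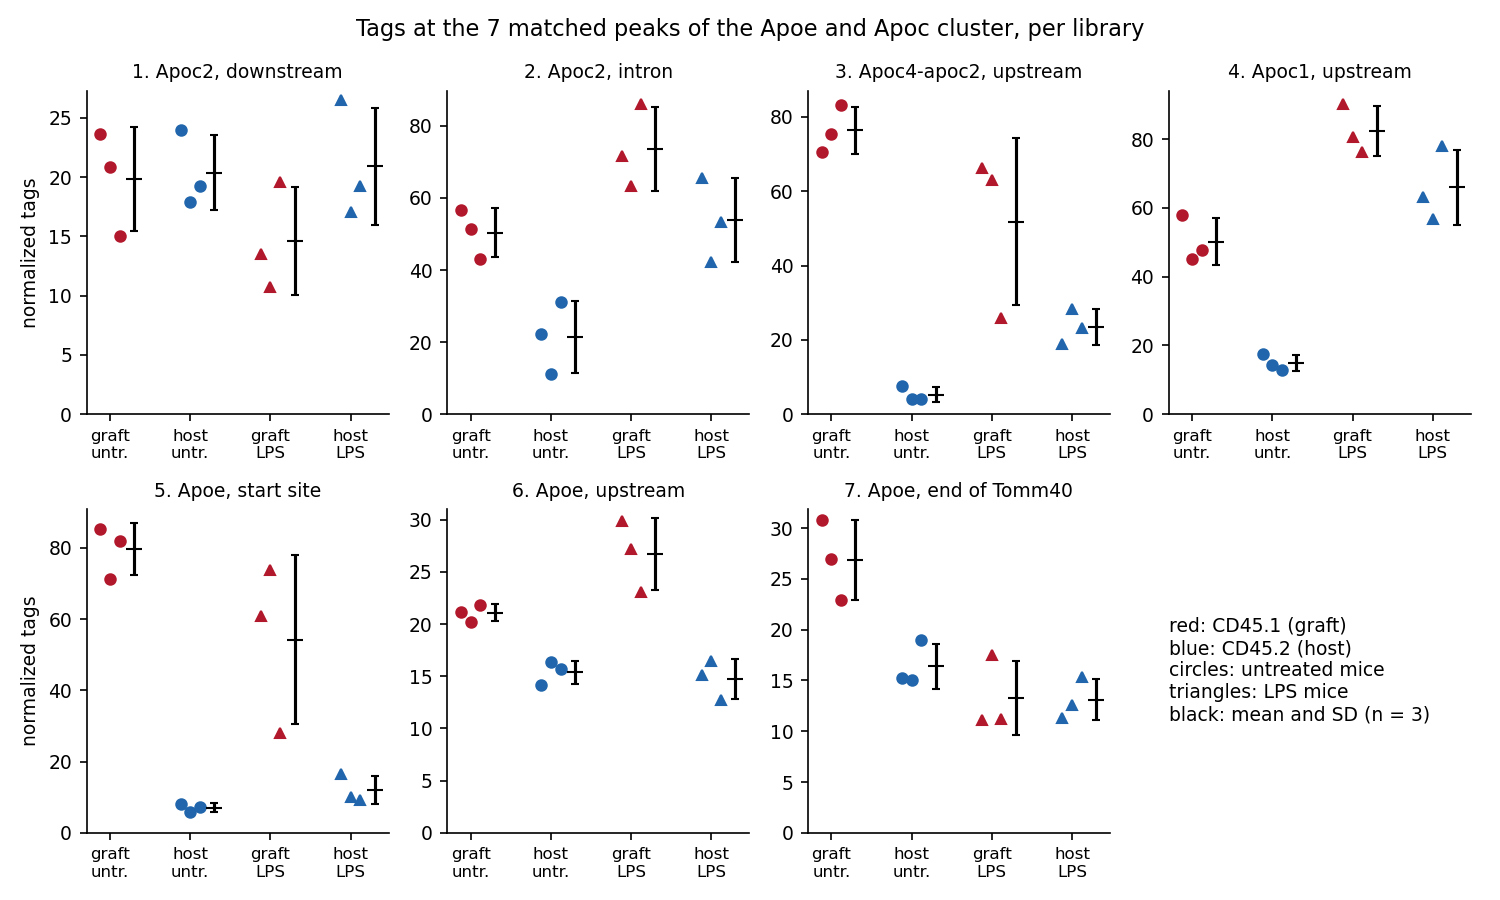
Normalized tags at the 7 member peaks present in both tables, on 1 scale over all 12 libraries, with a panel for each peak and a point for each library, and black marks for the mean and SD of 3 mice. At the Apoc4-apoc2 and Apoe start-site peaks untreated host libraries lie near 0 (4.12 to 8.16 tags) and grafted libraries between 70.6 and 85.3, and after LPS host libraries at Apoc4-apoc2 and Apoc1 sit higher than in untreated mice.

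After LPS, 1 of 7 tested member peaks was called higher in CD45.1, against 1.78% of all peaks tested in this table, and the same peak was the only one with adjusted p below 0.05 (4.08% of all peaks). Grafted libraries were all above host libraries at 2 of the 7, as at 14.1% of all peaks. The median log2 fold change of the 7 was 0.465, and that of all peaks was −0.00768. LPS libraries were shallower than untreated ones, and a peak that did not pass is not shown to be equal between the populations.

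The Apoe start-site peak (20284417 to 20284593) was the called peak. Normalized tags on the scale of the LPS table were 42.1, 49.6 and 18.9 in CD45.1 (mice 1, 2 and 3) and 11.4, 6.98 and 6.23 in CD45.2, with no overlap, although the grafted library of mouse 3 was much lower than the others. Again 3 of 3 grafted and 0 of 3 host libraries had it in their own peak list. The log2 fold change was 2.32 (SE 0.493, adjusted p 0.000204), or 4.99-fold with a 95% interval of 2.56 to 9.74. The adjusted p went to 0.0123, 0.0236, 0.0108 or 0.0175 without the CD45.1 library of mouse 1 or 2 or the CD45.2 library of mouse 2 or 3, past the limit of 0.01, with log2 fold changes from 2.06 to 2.26.

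The Apoc4-apoc2 peak (20269160 to 20269337) held 45.7, 42.4 and 17.5 normalized tags in grafted and 13.1, 19.6 and 15.7 in host cells. The grafted library of mouse 3 lay within the host range. It was also the lowest grafted library at the Apoe start, while at the Apoc1 peak it was close to the others. The log2 fold change of 1.08 (SE 0.426, adjusted p 0.123) did not pass. It was 1.42 with an adjusted p of 0.0323 without that library, and edgeR gave 1.07 with an adjusted p of 0.0177.

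At the Apoc1 peak (20278875 to 20279090) CD45.1 held 62.3, 54.1 and 51.4 tags and CD45.2 held 43.8, 39.3 and 52.8, so the groups overlapped (1.23-fold, 95% interval 0.840 to 1.79, adjusted p 0.722). The Apoc2 intron peak (20261251 to 20261455) held 42.4 to 58.0 tags in grafted and 29.2 to 45.5 in host cells (1.38-fold, 0.914 to 2.09, adjusted p 0.518). The upstream Apoe peak (20285033 to 20285209) held 20.6, 18.3 and 15.6 tags against 10.5, 11.3 and 8.61, without overlap but on few raw tags (1.84-fold, 0.931 to 3.62, adjusted p 0.415). The Apoc2 downstream peak (20254923 to 20255015; adjusted p 0.814) and the peak at the end of Tomm40 (20286524 to 20286700; adjusted p 0.996) held 7.18 to 18.4 tags in both populations and overlapped.

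Tags were also summed over all peaks of a gene. In untreated mice all 4 member genes with a peak were higher in CD45.1 with adjusted p below 0.05, against 7.35% of all genes. The grafted and the host sum were 191.6 ± 13.4 and 60.5 ± 4.49 normalized tags for Apoe (log2 fold change 1.66 with SE 0.188, adjusted p 1.3e-16 by DESeq2), 75.2 ± 10.5 and 22.3 ± 3.27 for Apoc1 (1.77, adjusted p 8e-08), 114.3 ± 8.05 and 7.98 ± 2.91 for Apoc4-apoc2 (3.92, adjusted p 4e-24) and 105.3 ± 18.04 and 62.9 ± 16.95 for Apoc2 (0.761, adjusted p 0.014). The Apoc2 sum was the weakest: its adjusted p was 0.0929 with the mouse as a block, 0.46 with size factors from total tags, and 0.175, 0.0811 or 0.267 without the CD45.1 library of mouse 4 or 5 or the CD45.2 library of mouse 5. The Apoe sum understates the start site, since 3 of its 4 peaks differed little or were near 0.

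After LPS only Apoe passed among the 4 genes, against 4.08% of all genes. Its sum reached 64.9 ± 19.8 in grafted and 27.4 ± 2.35 in host cells, a log2 fold change of 1.26 with SE 0.318 (DESeq2 adjusted p 0.0023). With the mouse as a block the adjusted p was 0.0533, and without the CD45.1 library of mouse 2 or the CD45.2 library of mouse 3 it was 0.0907 or 0.0534. The sums of Apoc1 (0.312, adjusted p 0.651), Apoc2 (0.284, adjusted p 0.693) and Apoc4-apoc2 (1.09, adjusted p 0.0972) did not pass.

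To ask whether grafted cells and host microglia responded differently to LPS, the 7 peaks of the LPS table were matched to those of the untreated table, which they overlapped by 65.0% to 96.1% of the wider peak, and all 12 libraries were fitted together. The test of the interaction asks whether the ratio of CD45.1 to CD45.2 differs between LPS-treated and untreated mice. Of the 7 peaks, 2 passed with adjusted p below 0.05, both with a lower ratio after LPS, against 0.224% of all matched peaks with a lower ratio and 0.242% in either direction. Most calls over all matched peaks thus had this direction (88 of 95).

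At the Apoc4-apoc2 peak the ratio dropped by 2.84 on the log2 scale (SE 0.517, adjusted p 0.000181), and its p ranked 8th of 39235 matched peaks. Within single mice CD45.1 held 9.28, 17.9 and 20.2 times the tags of CD45.2 in untreated mice 4, 5 and 6, and 3.50, 2.22 and 1.12 times in LPS mice 1, 2 and 3, with no overlap between the treatments. How many of all matched peaks separate in this way was not counted. The separation, here and at the peaks below, therefore only describes the values. With the mouse as a block the interaction was −2.93 (adjusted p 0.00317). On the scale of all 12 libraries the host mean was 5.32 ± 1.99 tags in untreated mice and 23.5 ± 4.76 after LPS, and the graft mean was 76.4 ± 6.31 and 51.8 ± 22.5.

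The Apoc1 peak showed the same direction, with a drop of 1.48 (SE 0.360, adjusted p 0.0201). The ratio within a mouse was 3.33, 3.16 and 3.69 in untreated mice and 1.43, 1.42 and 0.979 in LPS mice, again without overlap. This call was lost with the mouse as a block (−1.44, adjusted p 0.332), with size factors from total tags (−1.39, adjusted p 0.656) and without any one of 6 libraries, the CD45.1 libraries of mice 2, 3 and 4 and the CD45.2 libraries of mice 3, 5 and 6 (adjusted p 0.0686 to 0.261), always in the same direction.

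At the Apoe start site the ratio within a mouse was 10.5, 12.3 and 11.5 in untreated and 3.72, 7.31 and 3.05 in LPS mice. These do not overlap, but the interaction did not pass (−1.16, SE 0.540, adjusted p 0.829, 95% interval −2.22 to −0.0972), so a difference in response was neither shown nor bounded tightly. The Apoc2 intron peak (−0.775, adjusted p 0.925), the peak at the end of Tomm40 (−0.768, adjusted p 0.989) and the Apoc2 downstream peak (−0.384, adjusted p 0.991) had lower ratios after LPS without passing. The upstream Apoe peak had an estimate in the other direction (0.463, adjusted p 0.991), its ratios being lower in all 3 untreated than in all 3 LPS mice (1.66 to 1.98).

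**Figure D3:**
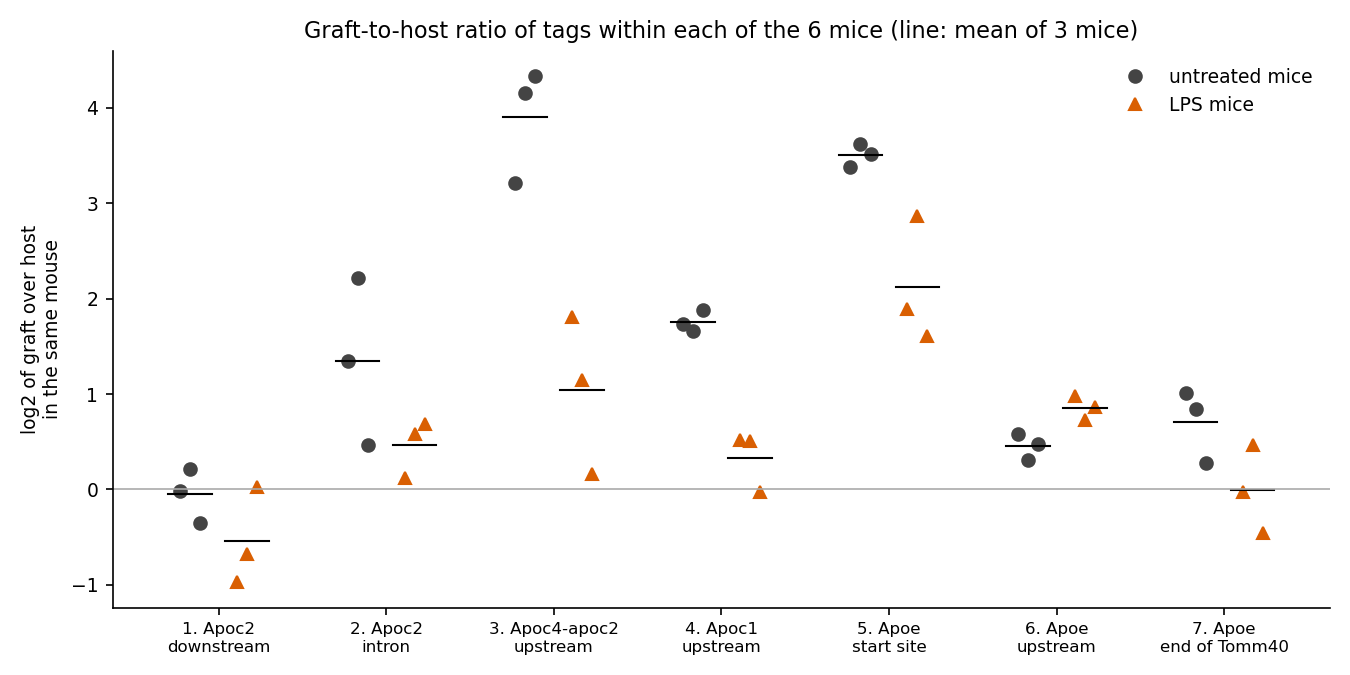
Log2 ratio of CD45.1 over CD45.2 normalized tags at each matched member peak, both populations taken from the same mouse, with circles for untreated and triangles for LPS mice and a line at the mean of 3 mice. The untreated and LPS mice do not overlap at Apoc4-apoc2 (3.21 to 4.33 against 0.158 to 1.81), Apoc1 and the Apoe start site, nor, in the other direction, at the upstream Apoe peak. The interaction passed only at Apoc4-apoc2 and Apoc1, and the share of all matched peaks that separate in this way was not counted.

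The contrast of LPS against untreated mice within a population was taken from the same model. Peaks of the treatments were called, merged and counted in separate tables, so treatment and table go together here and cannot be told apart, except that a factor common to both populations cancels in the interaction. In CD45.2 cells 3 of 7 peaks were higher after LPS, against 11.6% of all matched peaks. They were Apoc4-apoc2 (log2 fold change 2.25, SE 0.431, adjusted p 6.79e-06), Apoc1 (2.20, SE 0.278, adjusted p 6.12e-13) and the Apoc2 intron (1.33, SE 0.304, adjusted p 0.000271). The host mean rose from 14.9 ± 2.31 to 65.9 ± 10.8 tags at Apoc1 and from 21.5 ± 10.02 to 53.8 ± 11.6 at the Apoc2 intron. The Apoe start site did not pass in host cells, with 7.03 ± 1.19 and 11.9 ± 3.92 tags (0.589, 95% interval −0.311 to 1.49, adjusted p 0.417), nor did the upstream Apoe peak (−0.108, adjusted p 0.891), the end of Tomm40 (−0.278, adjusted p 0.705) or the Apoc2 downstream peak (0.00263, adjusted p 0.998).

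The Apoc1 and Apoc2 intron peaks were wider in the LPS table (216 against 145 bp and 205 against 145 bp), whereas the Apoc4-apoc2 peak was nearly equal (178 against 176 bp). Per base of peak width the host differences were 1.90 (adjusted p 9.86e-10), 1.10 (adjusted p 0.00409) and 2.50 (adjusted p 3.64e-07), and all 3 passed.

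In CD45.1 cells 1 of 7 peaks was higher after LPS, against 12.5% of all matched peaks, and 1 was lower, against 7.41%. Apoc1 rose from 50.2 ± 6.80 to 82.4 ± 7.16 tags (0.720, SE 0.229, adjusted p 0.013). This did not hold per base of peak width (0.417, adjusted p 0.188), with size factors from total tags (adjusted p 0.174) or without the CD45.1 library of mouse 1 or mouse 5 (adjusted p 0.0796 and 0.0727). The peak at the end of Tomm40 fell by 1.05 on the log2 scale (adjusted p 0.0482), a call lost without any one of 10 of the 12 libraries (all but CD45.2 of mouse 1 and CD45.1 of mouse 6), with adjusted p-values up to 0.186. Apoc4-apoc2 (−0.588, adjusted p 0.128) and the Apoe start site (−0.567, adjusted p 0.143) had lower estimates in grafted cells that did not pass, both with 1 low library, that of mouse 3. Without it they were −0.249 and −0.245, and with it edgeR gave adjusted p-values of 0.0463 and 0.0465.

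**Figure D4:**
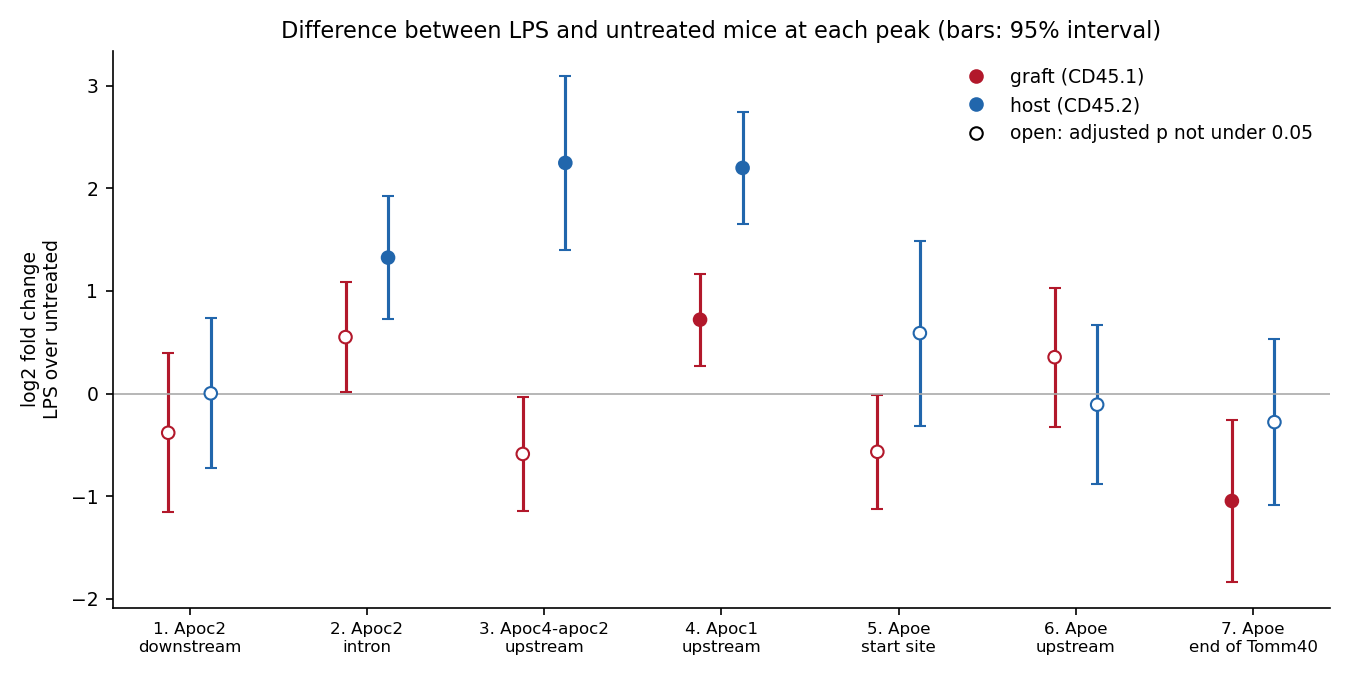
Log2 fold change of LPS over untreated mice at the 7 matched member peaks in CD45.1 (red) and CD45.2 cells (blue), with 95% intervals, filled where the adjusted p was under 0.05. In host cells peaks 2, 3 and 4 are filled at 1.33, 2.25 and 2.20, and the Apoe peaks 5 to 7 are open.

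The neighbouring genes on chromosome 7 are given for comparison. Of all genes, 7.35% were higher and 7.46% lower in CD45.1 of untreated mice with adjusted p below 0.05, and 4.08% and 2.98% after LPS. Of 18 neighbours tested as gene sums, 0 were higher and 1 was lower in CD45.1 with adjusted p below 0.05 (1 at an unadjusted p under 0.05, 1 by edgeR), with a median log2 fold change of −0.0959. The one was Nectin2, an adhesion molecule (−0.638, DESeq2 adjusted p 7.53e-05). The adjoining genes Tomm40 (−0.0903, adjusted p 0.851) and Clptm1 (0.00965, adjusted p 0.989) did not pass. After LPS 0 of 16 neighbours passed by DESeq2, 5 were at an unadjusted p under 0.05, all lower in CD45.1, and 1 passed by edgeR. Their median log2 fold change was −0.466, while that of all genes was −0.0121. Among 101 other peaks tested within 500 kb of the Apoe start in untreated mice, 1 was called higher in CD45.1, a peak near Bloc1s3, and 0 were called lower. Of all peaks tested, 3.78% were called higher. With adjusted p below 0.05 alone, 1 was higher in CD45.1, against 8.54% of all peaks, and 3 were lower. The median log2 fold change of the 101 was −0.117. After LPS 0 of 79 other peaks were called, while 1.78% of all peaks were called higher in CD45.1. With adjusted p below 0.05 alone, 1 was higher in CD45.1, against 4.08% of all peaks, and 1 was lower. The median log2 fold change of the 79 was −0.380. The neighbours thus lay lower in CD45.1 after LPS than in untreated mice. The part of this in the member ratios was not tested.

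**Figure D5:**
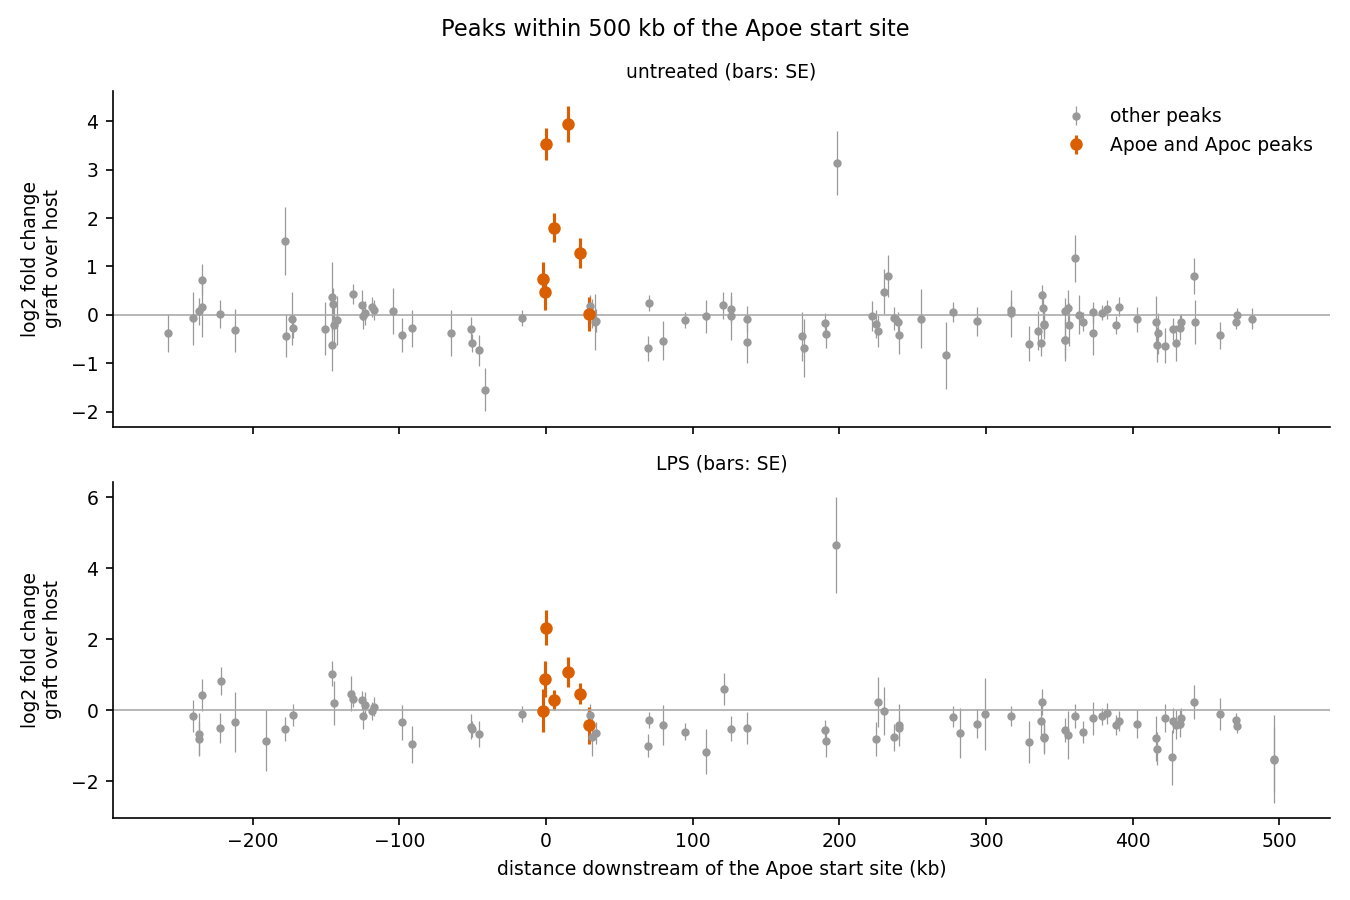
Log2 fold change of CD45.1 over CD45.2 (with SE) at every tested peak within 500 kb of the Apoe start site, against distance downstream of it in kb, with member peaks in orange. In untreated mice the member peaks rise to 3.95, and 1 of the 101 other peaks is called higher in CD45.1, against 3.78% of all peaks tested.

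Other genes of lipid transport were counted in the same way. The shares over all genes were again 7.35% higher and 7.46% lower in CD45.1 of untreated mice, and 4.08% and 2.98% after LPS. Of 10 other apolipoprotein genes tested in untreated mice, 0 were higher in CD45.1 and 1 was lower (3 at an unadjusted p under 0.05, 2 by edgeR). This was Apob, the structural protein of low density lipoprotein, with 4.71 ± 0.556 normalized tags in grafted and 74.1 ± 14.9 in host cells (−4.02, DESeq2 adjusted p 1.55e-15). Apob was lower after LPS as well (−2.53, adjusted p 5.5e-10). Of 29 genes of the lipoprotein and cholesterol pathway, 1 was higher in CD45.1, namely Lpl, the lipase that apolipoprotein C-II activates (0.846, adjusted p 0.000721), and 3 were lower, among them Rxrg, a partner of LXR (−3.23, adjusted p 6.47e-52), and the sorting receptor Sort1 (−0.536, adjusted p 0.0222). After LPS, Nr1h3, which encodes LXR alpha, was the 1 higher gene of 29 (1.00, adjusted p 0.0153), and 2 were lower, among them Rxrg (−2.75, adjusted p 2.33e-23). The pathway shares were thus 3.45% higher and 10.3% lower in untreated mice, and 3.45% and 6.9% after LPS. The medians over the pathway were 0.0380 and −0.0638.

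The genes whose summed accessibility followed Apoe most closely over the 12 libraries, on log2 values centred within each table, were Rraga (Pearson r 0.972), Dab2 (0.969), Pldi (0.968), Enpp6 (0.968) and Pde7b (0.965), out of 8545 genes compared. These correlations are descriptive, since the 12 points share mice and are dominated by the difference between the populations. Apoc2 ranked 1183rd with 0.625, and Apoc1 and Apoc4-apoc2 were too low in a table to be compared.

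Libraries of untreated mice held 8392877.5 to 9107770 tags and LPS libraries 2966364 to 6556594.5. The share in merged peaks was 29.1% to 39.0% in 10 libraries, 18.5% in CD45.2 of untreated mouse 4 and 26.3% in CD45.2 of LPS mouse 1. Markers of other cells were checked because Apoe is also expressed by perivascular macrophages and astrocytes. For comparison, 7.35% of all genes were higher and 7.46% lower in CD45.1 of untreated mice, and 4.08% and 2.98% after LPS. In untreated mice 4 of 7 perivascular macrophage genes with a peak were higher in CD45.1 (summed level 989 to 1067 against 611 to 706 tags, Lyve1 without a peak), and after LPS 2 of 7 (606 to 662 against 418 to 494). Of 7 astrocyte genes 1 was higher in CD45.1 of untreated mice, Gja1 (0.753, DESeq2 adjusted p 0.000375), and 3 were lower, led by Slc1a3 (333 against 982 tags, adjusted p 3.74e-38). The summed level was 656 to 838 tags in grafted and 1415 to 1588 in host cells. After LPS 1 of 7 was higher, again Gja1 (0.827, adjusted p 0.00416), and 1 was lower, Slc1a3, with sums of 508 to 600 and 593 to 742 that overlapped. All 10 microglia genes had a peak in each table, and 0 were higher and 2 lower in CD45.1 of untreated mice, among them Sall1 (111 against 1042 tags), which was also the 1 lower gene after LPS. Of the monocyte genes 0 of 6 passed in untreated mice (1 at an unadjusted p under 0.05, 1 by edgeR) and 0 of 7 after LPS (0 at an unadjusted p under 0.05, 0 by edgeR). The B cell gene Ms4a1, 1 of 2 lymphocyte genes with a peak, was higher in CD45.1 of untreated mice (1.73, adjusted p 5.39e-10) and after LPS (1.22, adjusted p 0.048). The other, Cd4, had lower estimates in CD45.1 that did not pass (−0.624, DESeq2 adjusted p 0.103, and −1.57, adjusted p 0.201). Among neuron genes 3 of 6 were lower in CD45.1 of untreated mice, Snap25 (−3.18), Syt1 and Rbfox3, and 2 of 7 after LPS. Of the oligodendrocyte genes only Mog was lower, as 1 of 6 in untreated mice and 1 of 5 after LPS, and 0 were higher. The part of these markers in the Apoe and Apoc differences was not tested.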

How the data were processed

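ATAC-seq was done on 12 libraries of sorted cells. The submitters' processing notes name bcl2fastq 2.17.1.14, Bowtie2, Picard 1.108 and HOMER, and build mm9. The authors called peaks in each library with HOMER (fragment length 300, false discovery rate 0.001, 4-fold over the local region, per the file headers). They merged the 6 lists of each treatment and counted tags in each merged peak. These deposited values come in steps of 0.5 without normalization, and were treated as estimated counts (expected counts) and rounded. The deposited per-library lists also give a normalized tag count, a signal scaled by the authors to a fixed library total, and were used only to see which libraries had a peak. Whether read ends were shifted for the transposase is not given in the sources used here; a shift moves a tag by only some bases.

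Each table was fitted with DESeq2 1.42.0 in R 4.3.3 (median-of-ratios size factors, count over 10 in at least 1 library, Benjamini-Hochberg adjustment over the table, no block), as were gene sums. Peaks overlapping reciprocally by at least 50% were fitted over all 12 libraries with population, treatment and interaction. Intervals are 95% Wald intervals and cover these 3 mice a group. Both populations came from the same mouse, and blocked values are given where they change a call; deviations of same-mouse libraries from the group means correlated with r from −0.0665 to 0.149. edgeR 4.0.16, other scalings, filters and left-out libraries were alternatives. Scripts were tested on simulated data. Member peaks were all named in order, other genes by list (up to 4 with the smallest adjusted p). Members and lists were chosen with earlier results of these data known. Sequences and gene ends come from NCBIM37 with GENCODE vM1. Some genes counted in these lists are not reported here by name.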

Additional observations from a re-analysis of the deposited data

Results flagged for a closer look

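The ratio of CD45.1 to CD45.2 tags differed between LPS-treated and untreated mice at 2 member peaks by the test of the interaction itself. At the Apoc4-apoc2 peak it was −2.84 on the log2 scale (DESeq2 adjusted p 0.000181), lower in each of the 3 LPS mice than in any untreated mouse, and the adjusted p ran from 0.000111 to 0.0126 over 17 alternatives. At the Apoc1 peak it was −1.48 (adjusted p 0.0201), also lower in each of the 3 LPS mice, and the adjusted p ran from 0.00851 to 0.656 over 17 alternatives, 9 of which passed. LPS libraries were shallower, and neighbouring peaks had a lower median ratio after LPS (−0.380 against −0.117 on the log2 scale). The part of either in these differences was not tested. The share of all matched peaks that separate the LPS from the untreated mice was not counted.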

How the results depend on the processing

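The count of called peaks in untreated mice was 2 in each of 11 refits and 4 with an adjusted p under 0.05 and no fold limit. After LPS it was 0 to 1 when libraries were left out. Gene sums higher in CD45.1 after LPS numbered 1, against 0 with the mouse as a replicate block, 2 with edgeR and 0 to 2 with a library left out. The interaction count of 2 became 1 with the mouse as a block, 1 with size factors from total tags, and 1 to 2 with a library left out. Peaks lower after LPS in CD45.1 numbered 3 with edgeR, 0 with total tags and 0 to 1 with a library left out, against 1. Peaks higher there numbered 0 with total tags, 0 per base of peak width (an alternative chosen after seeing the data) and 0 to 1 with a library left out, against 1. The count of 3 higher after LPS in CD45.2 was 3 in all 16 alternatives. Of 573 refitted values of single peaks and genes, 0 turned direction while passing a test, 33 lost and 7 gained an adjusted p under 0.05. Besides the calls given above and the Apoc2 sum of untreated mice (adjusted p 0.0929), the block changed none, and it could not be fitted for LPS against untreated, since each mouse had 1 treatment. Size factors from total tags moved the median of all LPS peaks to 0.136 and that of LPS against untreated in CD45.2 to −0.148. Leaving out each library in turn gave log2 fold changes of 3.37 to 3.64 for the Apoe start site and 3.79 to 4.17 for Apoc4-apoc2 in untreated mice, and 2.06 to 2.65 and 0.833 to 1.42 after LPS. Member peaks of the LPS table held 4.5 to 89 raw tags a library, which limits the precision of their differences.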
